A study of Mus musculus with 16 samples.

Results

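Sorted hair cell-like cells made from mouse embryonic stem cells by doxycycline (Dox) were compared with untreated embryoid bodies (EBs) on culture day 12, across all genes of a whole-transcript array. The arrays were picked by their labels: 3 arrays of Dox-treated induced hair cell-like cells (iHCs) and 2 arrays of control EBs, 5 of the 16 in the series. The iGPA-Myo7a:mVenus stem cell line carries Gfi1, Pou4f3 and Atoh1 under Dox control, and a Myo7a promoter that drives the fluorescent protein mVenus. Floating EBs received Dox from day 4 for 8 days, were dissociated with trypsin, and cells with mVenus signal were collected by flow cytometry. Control EBs came from the same line and culture, received neither Dox nor retinoic acid (RA), and were not sorted. A difference between these groups therefore holds Dox itself, the 3 factors and the sort with its dissociation, and these cannot be told apart. All samples share 1 stem cell line, and the submitters describe the replicates as biological, from independent RNA preparations; whether these came from separate cultures is not given, so the p-values measure the spread between these samples. The same groups on day 8 (3 and 2 arrays, 4 days of Dox) served to show where the day 12 Dox iHCs differ. So did 3 arrays of day 12 iHCs treated with Dox and RA. All 16 arrays of the series, those of day 8 iHCs given Dox and RA included, also set the spread behind the p-values.

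Hair cells are the sensory receptors of the inner ear. A bundle of actin-filled stereocilia at the cell apex is deflected by sound or motion, tip links between neighbouring stereocilia pull open the mechanotransduction channel, and the resulting depolarisation releases glutamate from ribbon synapses. Atoh1 starts the hair cell programme, Pou4f3 and Gfi1 act after it and are needed for hair cells to survive, and mature hair cells no longer divide. EBs left to differentiate hold a mixture of mesenchyme, heart, blood vessel, blood, endoderm and neural cells.

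Values are log2 RMA signals, on which a difference of 1 is a 2-fold change. The calls came from limma's moderated test, at a Benjamini-Hochberg adjusted p below 0.05 across the 22180 genes, and the number after ± is the standard error (SE) of the fitted difference. All differences are Dox iHCs minus control EBs unless another pair is named. On this rule 40.8% of all genes were called, 19.2% higher and 21.7% lower in Dox iHCs, 15.4% were called with a change of 2-fold or more (6.67% higher, 8.75% lower), and the median difference of all genes was 0.02. In 58.3% of all genes the arrays of the groups did not overlap, with iHCs higher in 29.6% and lower in 28.7%, and 40.6% were also called. The 3 iHC arrays correlated with one another at 0.982 to 0.994, the control EB pair at 0.994, and iHC with EB arrays at 0.876 to 0.907. With so many genes called, the count in each gene list below is read against these shares.

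**Figure D1:**
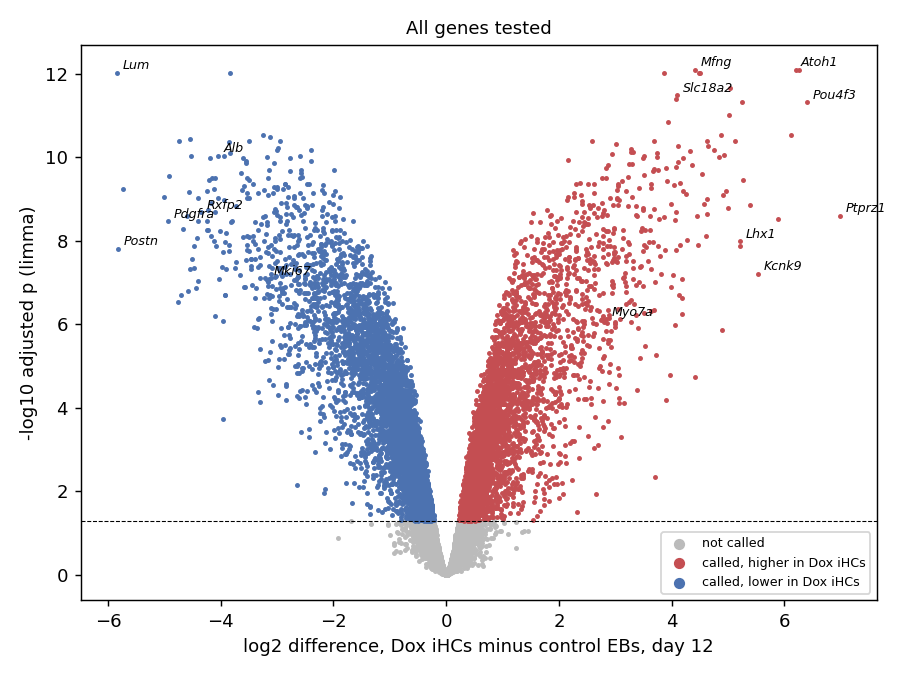
Each point is 1 of the 22180 genes; the x axis is the log2 difference between Dox iHCs (3 arrays) and control EBs (2 arrays) on day 12, the y axis is -log10 of limma's adjusted p, and the dashed line marks 0.05. Red and blue points are the 4252 higher and 4803 lower calls; Ptprz1 lies farthest to the right at 7.0 and Lum farthest to the left at -5.84.

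The label of the sorted cells was set beside cell type markers. The comparison was chosen with earlier results of these data known, so this is a description. All 12 hair cell markers rose, but 4 of them are the induced factors and Myo7a, the gene of the sort reporter, whose rise the treatment and the sort fix. The other 8 also all rose, with mean signals of 8.64, 8.46 and 8.23 on the 3 iHC arrays against 4.54 and 4.42 on the EB arrays. The mesenchyme markers went the other way, with 8 of 8 lower and means of 4.43, 4.45 and 4.98 against 9.00 and 9.04. Of 8 neuron markers 4 were higher and 1 was lower, with means of 6.31 to 6.54 against 5.34 and 5.57. Elavl4, 1 of the 4, lost its call without the first or the second iHC array (adjusted p = 0.081 and 0.071). Nor was its call kept without the second EB array, where it differed by 0.9 against 1.09 with all arrays. The lower marker, Tubb3, differed by -0.61. Without the second EB array it differed by -0.57 and its call was not kept. Merkel cells, the touch receptors of the skin, also depend on Atoh1; of their 4 markers Krt20 and Piezo2 were higher, while the keratins Krt8 and Krt18 were not called. All 5 endothelial, 4 of 5 endoderm, 4 of 4 blood and 4 of 4 pluripotency markers were lower. The endothelial Cdh5 spread widely, at 6.49, 7.16 and 5.45 against 8.61 and 8.47 (-2.17 ± 0.62). Its call was not kept without the first or the second EB array, where it differed by -2.1 and -2.24. Without the first and the second iHC array calls were lost for Hbb-y (adjusted p = 0.1 and 0.081) and Pou5f1 (0.056 and 0.079). Apoa1 (0.08 and 0.079) and Ttr (0.095 and 0.085) lost theirs too. Hbb-y did not keep its call without the first or the second EB array (-0.53 and -0.65). Pou5f1 did not without the first, where it differed by -0.19 against -0.32 with all arrays. The endoderm count fell to 2 without the second EB array, where Apoa1 had an adjusted p of 0.36 and Ttr of 0.24. Of 5 heart markers 1 was higher (Actc1, 1.20 ± 0.34) and 2 were lower, and the Actc1 call was lost without the first EB array (adjusted p = 0.10). Of 3 glial markers Mbp was higher (1.45 ± 0.13), and of 3 surface epithelium markers Krt14 was (0.31 ± 0.11), a call lost without either EB array (adjusted p = 0.082 and 0.16) or without the second or the third iHC array (0.11 and 0.066). The array has no detection call to show which markers were absent. The labels give embryonic stem cell as the cell type, and the pluripotency markers had means of 4.58 to 5.03 in iHCs and 6.45 on both EB arrays.

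**Figure D2:**
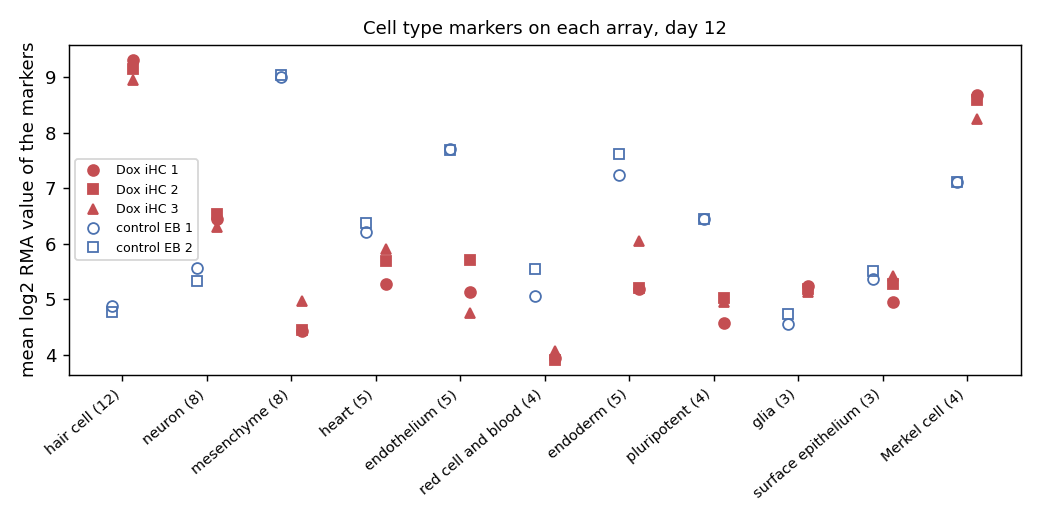
Mean log2 RMA value of the markers of 11 cell types (number measured in brackets) on each day 12 array; filled red symbols are the 3 Dox iHC arrays and open blue symbols the 2 control EB arrays. Hair cell markers, the induced factors and Myo7a included, stand at 8.94 to 9.31 on iHC arrays and mesenchyme markers at 9.00 to 9.04 on EB arrays, and the third iHC array has the highest endoderm mean of the 3, 6.05.

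The 3 induced factors and the reporter gene were all higher. Pou4f3 stood at 11.49, 11.47 and 11.18 on the iHC arrays and at 5.30 and 4.66 on the EB arrays, a difference of 6.40 ± 0.19 (adjusted p = 4.8e-12). Atoh1 read 11.36, 11.34 and 10.98 against 4.97 and 5.09, and Gfi1 read 11.25, 11.12 and 10.87 against 6.59 and 6.58. The third iHC array was the lowest for each factor, and no array overlapped between the groups, as in 58.3% of all genes. Myo7a, the myosin whose promoter drives the sorted reporter, read 8.51, 8.10 and 8.43 against 5.32 and 5.68 (2.84 ± 0.28, adjusted p = 7.6e-07). The probes may read transgene and endogenous transcripts alike, so these values do not separate them.

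Transcriptional and splicing regulators of hair cells mostly rose: 13 of 21 were higher, 5 lower and 3 not called, with a median difference of 1.56. The homeobox gene Barhl1, needed to maintain hair cells, read 8.96, 8.91 and 8.89 against 3.84 and 4.17 (4.92 ± 0.24, adjusted p = 8.1e-10). The LIM-homeobox gene Lhx3 rose by 4.54 ± 0.20. The neuronal helix-loop-helix gene Nhlh1 rose by 6.11 ± 0.21 and the RNA-binding splicing factor Rbm24 by 4.99 ± 0.27. Pou4f1, the relative of Pou4f3 known from sensory neurons, rose by 3.27 ± 0.12.

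A neural splicing factor rose and a repressor of neuronal genes fell. Srrm4, which drives neural exon inclusion and switches off REST in hair cells by splicing, read 8.41, 8.08 and 7.84 against 4.91 and 4.82 (3.24 ± 0.22, adjusted p = 2.0e-08). Rest, the repressor of neuronal genes outside the nervous system, read 4.58, 5.40 and 5.92 against 7.23 on both EB arrays (-1.93 ± 0.28, adjusted p = 4.3e-05). No array overlapped between the groups for either gene, as in 58.3% of all genes. The nuclear receptor Nr2f2 (-2.51 ± 0.20) was also lower.

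All 14 measured genes of the tip link and transduction complex rose, 11 of them by 2-fold or more, with a median of 1.88. The tip-link cadherin Cdh23 read 9.09, 9.02 and 8.87 against 4.24 and 4.06 (4.85 ± 0.19, adjusted p = 1.0e-10). Its partner Pcdh15 rose by 3.32 ± 0.13 on 1 of its array entries and differed by 0.03 on the other. Lhfpl5, which couples the tip link to the channel, read 8.38, 7.64 and 7.46 against 3.82 and 3.87 (3.98 ± 0.33, adjusted p = 1.3e-07). Tmie, a further subunit, rose by 3.90 ± 0.17.

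Other genes of the complex rose by smaller amounts. Tmc2, a channel gene used early in hair cell life, read 7.78, 7.31 and 6.46 against 4.83 and 4.97 (2.28 ± 0.32, adjusted p = 3.5e-05). Loxhd1 (2.78 ± 0.42) and the calcium-binding Cib3 (2.10 ± 0.27) were higher too. The spread among the iHC arrays was wide for Tmc2, Loxhd1 and Lhfpl5, with array 1 highest and array 3 lowest in each.

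Stereocilia genes moved both ways. Of 28 measured 16 rose, 5 fell and 7 were not called, with a median of 0.44; without the second EB array 10 rose. The unconventional myosins of the stereocilium were among the rises. Myo15, which carries elongation factors to stereocilia tips, read 9.38, 9.03 and 8.53 against 4.70 and 4.05 (4.61 ± 0.29, adjusted p = 7.8e-09), and Myo3b rose by 3.29 ± 0.32. Taperin (Tprn), found at the stereocilia base, rose by 2.34 ± 0.16 and the actin-bundling protein espin (Espn) by 1.41 ± 0.14.

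Some other actin-bundling proteins were lower. The plastin Pls3 read 4.29, 4.52 and 4.91 against 7.65 and 7.83 (-3.17 ± 0.21, adjusted p = 1.4e-08). Its blood-cell relative Lcp1 was lower by -1.76 ± 0.15 and fascin 1 (Fscn1) by -1.35 ± 0.27. Grxcr2, a stereocilia protein, was called at 2.66 ± 0.77 (adjusted p = 0.011), but its iHC values were 7.98, 7.14 and 5.14 against 4.07 and 4.11. Leaving out either EB array gave it an adjusted p of 0.061 or 0.059.

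**Figure D3:**
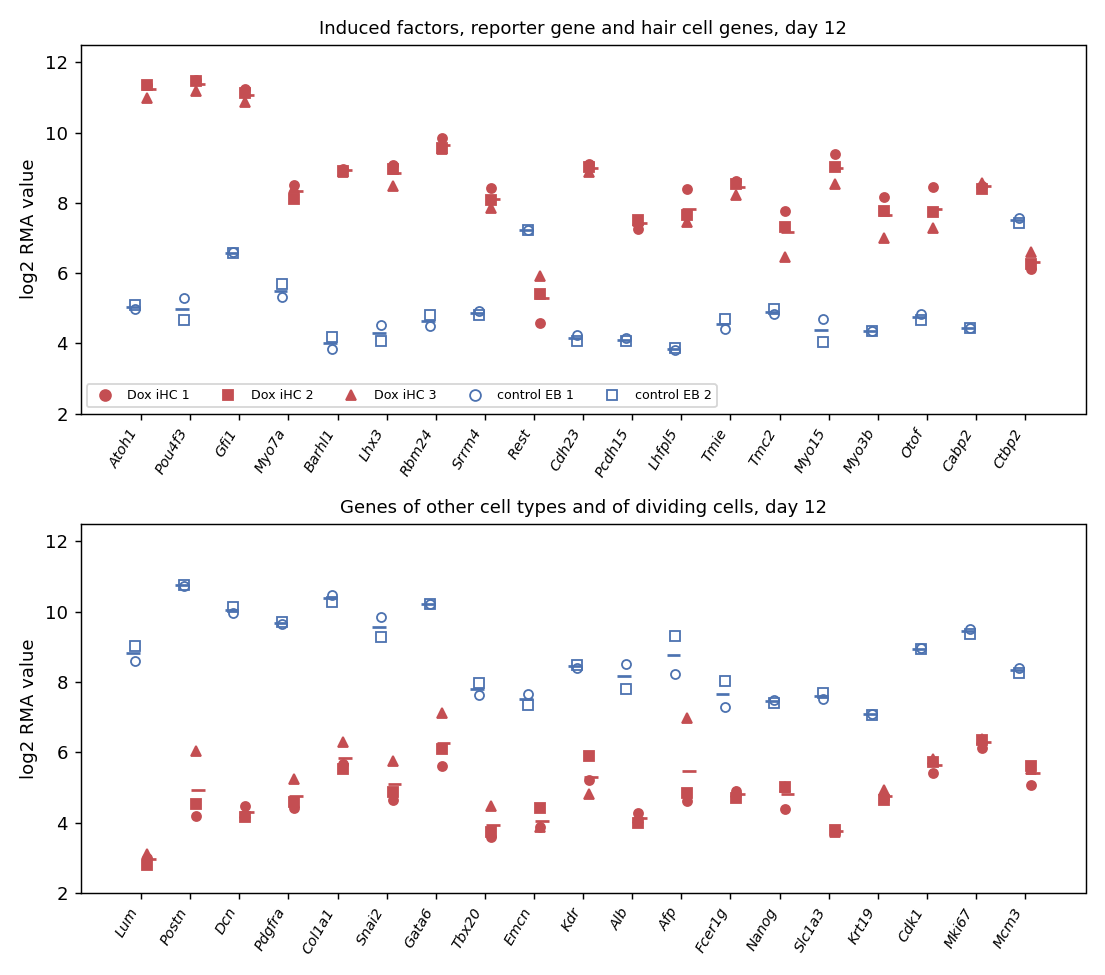
Log2 RMA value of single genes on each day 12 array; red filled symbols are Dox iHC replicates 1 to 3, blue open symbols control EB replicates 1 and 2, and short lines are group means. The upper panel holds factors and hair cell genes, of which Rest and Ctbp2 are lower in iHCs; all genes in the lower panel, from mesenchyme to cell cycle, are lower in iHCs, for example Lum at 2.79 to 3.11 against 8.59 and 9.03.

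Of 35 synapse and release genes 23 rose, 3 fell and 9 did not pass, with a median of 1.56. Rimbp2, which links calcium channels to the release machinery, read 9.75, 9.74 and 9.15 against 4.61 and 4.23 (5.13 ± 0.18, adjusted p = 4.2e-11). Otoferlin (Otof), the calcium sensor of hair cell exocytosis, read 8.44, 7.74 and 7.29 against 4.84 and 4.68 (3.06 ± 0.47, adjusted p = 7.6e-05). The calcium-binding Cabp2, which keeps hair cell calcium channels open, rose by 4.04 ± 0.19 with only 0.17 between its highest and lowest iHC array. The scaffold Pclo rose by 4.12 ± 0.17, and the vesicle calcium sensors Syt1 and Syt7 by 4.37 ± 0.18 and 4.20 ± 0.20. Ctbp2, the gene that also encodes the ribbon protein RIBEYE, read 6.12, 6.26 and 6.59 against 7.57 and 7.43 (-1.17 ± 0.18, adjusted p = 7.2e-05); its entry does not separate the transcript forms.

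Transmitter genes gave a mixed picture, with 4 of 23 higher, 3 lower and 16 not called, near the shares of all genes. The glutamate transporter Slc17a8, which fills synaptic vesicles in inner hair cells, read 6.80, 7.28 and 7.15 against 5.17 and 5.05 (1.96 ± 0.16, adjusted p = 1.1e-07). Its relative Slc17a7 rose by 1.93 ± 0.28. The monoamine transporter Slc18a2 was higher by 4.10 ± 0.12 and the dopamine-synthesis enzyme Th by 1.64 ± 0.29, while Ddc, the next enzyme of that pathway, was lower by -1.48 ± 0.19.

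Receptors for acetylcholine, the transmitter of the efferent nerve to hair cells, rose in 9 of 16 cases, and the other 7 were not called. Chrna10, a subunit of the hair cell efferent receptor, read 9.36, 8.46 and 7.38 against 4.01 and 3.96 (4.41 ± 0.59, adjusted p = 1.8e-05). Chrna9, its partner in that receptor, read 6.44, 5.39 and 5.14 against 4.77 and 4.81 and was not called (0.86 ± 0.40, adjusted p = 0.10), though it was without the third iHC array (1.12, adjusted p = 0.043) and with the replicate number as a block (1.13, adjusted p = 0.00048). The ganglionic subunits Chrna3 (1.95 ± 0.31) and Chrnb4 (2.78 ± 0.26) were higher.

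Channel and calcium-handling genes moved both ways. Potassium channel subunits rose in 28 of 86 cases and fell in 12, led by the leak channel Kcnk9, which read 10.73, 10.41 and 9.25 against 4.71 and 4.49 (5.53 ± 0.42, adjusted p = 6.3e-08). Kcnn3, a calcium-activated potassium channel, fell by 2.84 ± 0.21. Calcium channel subunits rose in 14 of 25 cases, or in 9 without the first EB array, and fell in 5. They were led by the auxiliary subunit Cacna2d2 (4.75 ± 0.18) and the N-type channel Cacna1b (3.05 ± 0.14). Of 27 calcium buffers and pumps 9 were higher, 6 lower and 12 not called, and of 11 sodium channel subunits 2 were higher and 2 lower, the latter count falling to 1 without either EB array or without the second or the third iHC array. The calcium pump of stereocilia, Atp2b2, read 8.84, 8.66 and 8.25 against 4.87 and 5.02 (3.64 ± 0.17, adjusted p = 5.3e-10), while Atp2b4 of the same family was lower by -1.32 ± 0.27.

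Of 23 glutamate receptor subunits 12 were higher and 4 lower. The NMDA-type subunit Grin2c rose by 3.67 ± 0.16, and by 1.53 on its other entry, while Grin3a of the same class was lower by -0.70 ± 0.14. The metabotropic receptors Grm2 and Grm4 were higher by 3.64 ± 0.17 and 3.52 ± 0.16. Among the AMPA-type subunits Gria3 read 4.01, 3.90 and 4.32 against 8.35 and 8.24 (-4.22 ± 0.23, adjusted p = 1.8e-09), and Gria1 and Gria4 were lower by -2.63 ± 0.18 and -1.29 ± 0.17.

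Neuronal genes rose as well, though not as a whole. Of 27 genes of neurofilaments and the neuronal cytoskeleton 16 were higher, 4 lower and 7 not called. Dpysl5, which acts in neurite growth, read 10.21, 10.12 and 9.81 against 6.25 and 6.33 (3.75 ± 0.25, adjusted p = 1.3e-08). Stmn3 rose by 3.48 ± 0.21, Map2 by 3.11 ± 0.21 and the intermediate filament Ina by 3.13 ± 0.24. Map1b was lower by -1.07 ± 0.17, and the neuron markers Dcx and Stmn2 differed by -0.13 and -0.11 and were not called.

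Neuronal RNA-binding proteins were higher in 15 of 29 cases and lower in 8, with Rbfox3 at 2.79 ± 0.18. Granins, the proteins of dense-core vesicles, stood out among neuropeptide genes, of which 9 of 28 rose and 3 fell (1 without either EB array). Scg3 read 8.47, 8.19 and 7.60 against 3.94 and 3.93 (4.15 ± 0.27, adjusted p = 1.2e-08), and Chgb rose by 4.08 ± 0.27. Axon guidance genes fell more often than they rose, 29 against 19 of 68. The ephrin receptor Epha3 was lower by -4.18 ± 0.22, the netrin receptor Unc5c by -4.11 ± 0.26 and Nrp1 by -3.61 ± 0.23, while Unc5a was higher by 3.51 ± 0.23 and Draxin by 3.43 ± 0.16.

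The sensory channel Piezo2, which detects touch in Merkel cells and sensory neurons, read 9.49, 9.11 and 8.40 against 6.91 and 6.46 (2.32 ± 0.25, adjusted p = 2.6e-06). Prrxl1, a homeobox gene of sensory neurons, rose by 3.49 ± 0.19. The list of sensory neuron genes as a whole had 7 of 28 higher and 10 lower. Proneural and inhibitory helix-loop-helix genes were called in 8 of 24 cases, 3 higher and 5 lower, and in 3 lower without the first EB array.

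Notch ligands and their modifiers rose while receptors and effectors fell in part. In lateral inhibition a future hair cell displays Notch ligands and its neighbours respond through Notch receptors. Of 10 ligand and fringe genes 6 were higher and 2 lower. Jag2, a ligand made by hair cells, read 9.71, 9.51 and 9.41 against 5.12 and 5.82 (4.08 ± 0.17, adjusted p = 1.7e-10), and the fringe glycosyltransferase Mfng rose by 4.42 ± 0.10. Jag1, the ligand of supporting cells, was lower by -1.45 ± 0.38.

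Of 13 receptor and effector genes 3 were higher and 6 lower. Notch2 read 5.02, 5.64 and 6.20 against 8.54 and 8.24 (-2.77 ± 0.27, adjusted p = 9.3e-07), and the effector Hey2 was lower by -1.49 ± 0.21. The feedback inhibitor Nrarp was higher by 1.04 ± 0.13. Otic and supporting cell genes were higher in 8 of 30 cases and lower in 5, or in 3 without the second EB or second iHC array. Fbxo2, a ubiquitin ligase subunit of otic cells, rose by 3.48 ± 0.24, Prox1 by 3.17 ± 0.25 and Eya1, needed for the otic placode, by 2.63 ± 0.19, while Sox9 was lower by -1.71 ± 0.28.

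Cilia and polarity genes were more often higher. Among 25 cilia and polarity genes 12 were higher and 2 lower. Celsr3 read 7.77, 7.76 and 7.48 against 3.93 and 4.18 (3.61 ± 0.20, adjusted p = 2.5e-09), and Celsr1, which orients hair cell bundles, rose by 2.86 ± 0.12. The giant cadherin Fat4 was lower by -3.61 ± 0.15 on 1 entry and by -0.40 on the other, and its partner Dchs1 by -1.38 ± 0.14.

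**Figure D4:**
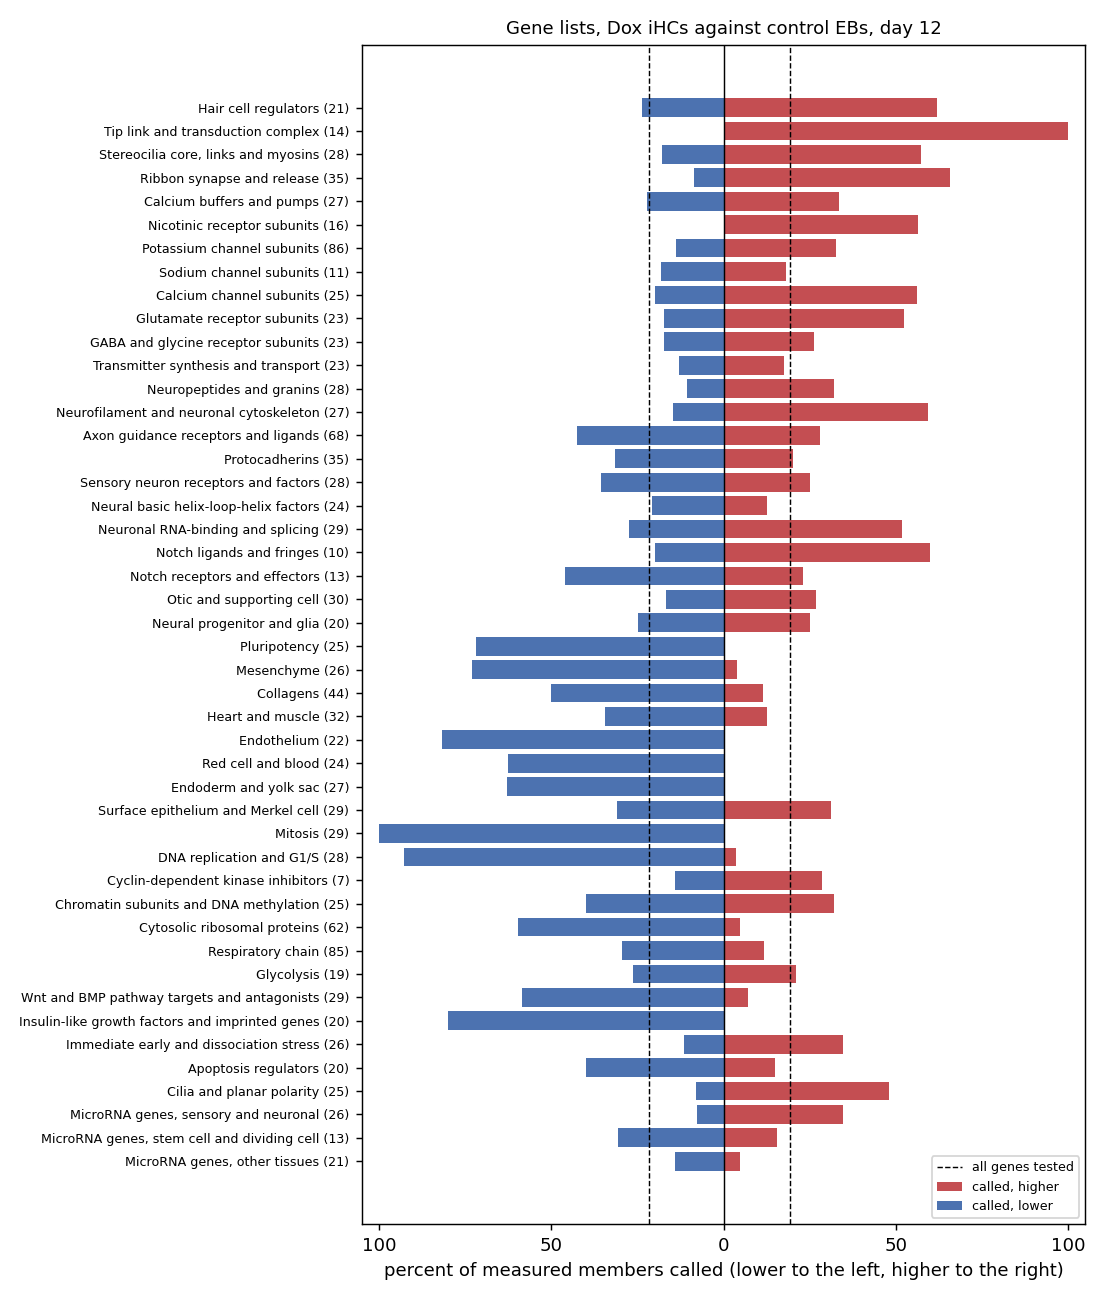
Percent of the measured members of each gene list (number in brackets) that were called higher (red, to the right) or lower (blue, to the left) in Dox iHCs than in control EBs; dashed lines give the shares of all genes tested, 19.2% and 21.7%. All 14 tip link and transduction genes were called higher and all 29 mitosis genes lower.

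Lists for other cell types of an EB differed in how many members were lower. Mesenchyme genes fell in 19 of 26 cases with a median of -2.18, and 1 rose, the forkhead gene Foxc1 (1.72 ± 0.26). Lumican (Lum), a matrix proteoglycan, read 2.99, 2.79 and 3.11 against 8.59 and 9.03 (-5.84 ± 0.14, adjusted p = 9.5e-13). Periostin (Postn) read 4.19, 4.54 and 6.03 against 10.74 and 10.75, and the growth factor receptor Pdgfra read 4.42, 4.58 and 5.23 against 9.64 and 9.71. In bulk RNA, fewer cells of a type and less RNA per cell cannot be told apart.

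Collagens fell in 22 of 44 cases and rose in 5. The fibrillar Col1a1 and Col3a1 were lower by -4.56 ± 0.22 and -4.55 ± 0.16, and Col6a3 by -3.49 ± 0.13. Col11a2, a cartilage collagen also found in the tectorial membrane, was higher by 1.68 ± 0.18. Further large falls were the hyaluronan synthase Has2 (-4.51 ± 0.32), the transcription factor Snai2 of mesenchymal cells (-4.47 ± 0.33), the basement membrane protein Nid1 (-4.41 ± 0.35), the homeobox gene Meis1 (-4.42 ± 0.28), and Rxfp2, a receptor for insulin-like 3 (-4.35 ± 0.24).

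Endothelial genes were lower in 18 of 22 cases and not called in 4, with Emcn at -3.47 ± 0.25 and the receptor Kdr at 5.21, 5.89 and 4.82 against 8.41 and 8.48. Blood genes were lower in 15 of 24 cases, among them Fcer1g of myeloid cells (-2.83 ± 0.16). Endoderm and yolk sac genes were lower in 17 of 27 cases, or 10 without the second EB array. Albumin (Alb) read 4.26, 3.99 and 4.12 against 8.52 and 7.81 (-4.04 ± 0.16, adjusted p = 9.3e-11). Alpha-fetoprotein (Afp) read 4.60, 4.83 and 6.97 against 8.23 and 9.32, so that the third iHC array lay between the other iHC arrays and the EBs.

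Neural progenitor and glial genes were higher in 5 of 20 cases, or 3 without the first EB array, and lower in 5. Of 32 heart and muscle genes 11 were lower, 4 higher and 17 not called. The cardiac factor Tbx20 was lower by -3.86 ± 0.25, Hand2 by -3.05 ± 0.13 and Gata6 by -3.95 ± 0.39. Desmin (Des), the muscle intermediate filament, read 9.37, 9.60 and 9.63 against 6.38 and 7.10 (2.79 ± 0.20, adjusted p = 2.5e-08), and the myosin light chain Myl3 rose by 2.14 ± 0.33. Pluripotency genes fell in 18 of 25 cases, or 11 without the first EB array, and 7 were not called. Nanog read 4.39, 5.01 and 5.02 against 7.49 and 7.41.

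Genes of dividing cells were lower. All 29 mitosis genes fell, each by 2-fold or more, with a median of -2.70. The mitotic kinase Cdk1 read 5.42, 5.71 and 5.80 against 8.96 and 8.93 (-3.30 ± 0.24, adjusted p = 3.7e-08), and the proliferation marker Mki67 was lower by -3.15 ± 0.25. Of 28 replication genes 26 fell, with the helicase subunit Mcm3 at -2.92 ± 0.24. Of 7 cell cycle inhibitors 2 rose, 1 fell and 4 were not called. Cdkn2d was higher by 1.47 ± 0.17 and Cdkn1b, which keeps hair cell precursors out of the cycle, by 0.62 ± 0.14, while Cdkn2c was lower by -0.84 ± 0.15. Cdkn1a and Cdkn1c differed by -0.16 ± 0.24 and -0.13 ± 0.26 and were not called.

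Ribosomal and imprinted genes were often lower. Of 62 cytosolic ribosomal protein genes 37 fell and 3 rose, with a median of -0.49; many have near-identical copies in the genome that probes may share. Of 20 insulin-like growth factor and imprinted genes 16 fell and 4 were not called. Igfbp4 read 5.91, 6.42 and 6.72 against 9.78 on both EB arrays (-3.43 ± 0.21, adjusted p = 7.8e-09), and the imprinted genes Grb10 and Dlk1 were lower by -3.36 ± 0.34 and -2.91 ± 0.22. Wnt and BMP pathway genes fell in 17 of 29 cases, with Bmp4 at -3.39 ± 0.24 and the Wnt antagonist Sfrp1 at -4.58 ± 0.38. Respiratory chain genes fell in 25 of 85 cases and rose in 10, but fell in 15 and 13 without the first and the second EB array. The list's 2 called changes of 2-fold or more were rises, of the cytochrome oxidase subunits Cox8b (2.49 ± 0.37) and Cox7a1 (1.96 ± 0.49).

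Stress genes were read separately, since the sorted cells had been dissociated with trypsin and sorted. Of 26 immediate early and stress genes 9 rose, 3 fell and 14 were not called. Their mean signal was 7.41, 7.46 and 8.45 on the iHC arrays and 7.19 and 7.46 on the EB arrays, so only the third iHC array stood above both EB arrays by more than the EBs differed. Gadd45b read 8.55, 8.76 and 9.09 against 6.26 and 6.45 (2.45 ± 0.18, adjusted p = 4.4e-08), Ddit3 rose by 2.0 ± 0.16, Btg2 by 1.94 ± 0.17 and Dusp1 by 1.58 ± 0.20. The immediate early gene Egr3 (0.46 ± 0.57) and the heat shock genes Hspa1a (1.25 ± 0.76) and Hspa1b (0.65 ± 0.88) were not called. The part of dissociation in these and the other differences was not tested. Among 20 apoptosis genes 3 rose and 8 fell: Hrk, a neuronal death activator, was higher by 2.32 ± 0.25, while Casp8 and the death receptor Fas were lower by -2.94 ± 0.24 and -1.65 ± 0.23.

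MicroRNA genes were measured through precursor or host transcript probes, at low signal. In the list of sensory and neuronal microRNAs 9 of 26 were higher, but 4 and 5 were higher without the first and the second EB array. The cluster of Mir183, Mir96 and Mir182 on chromosome 6 is expressed in sensory hair cells, where mutation of its member miR-96 causes deafness. The mature forms below, from RefSeq (GRCm38.p6, minus strand), are shown because their seeds (bases 2 to 8, in capitals) are close: the seed of miR-96 differs from that of miR-182 at 1 of 7 bases and from that of miR-183 at 1, and those of miR-182 and miR-183 differ at 2.
mmu-miR-182-5p, chr6:30165962-30165986: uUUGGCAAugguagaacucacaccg
mmu-miR-96-5p, chr6:30169506-30169528: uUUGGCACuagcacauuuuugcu
mmu-miR-183-5p, chr6:30169711-30169732: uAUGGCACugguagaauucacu

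Mir182 read 4.88, 4.43 and 4.12 against 2.72 and 2.91 (1.66 ± 0.40, adjusted p = 0.0036). Mir96 read 4.79, 4.59 and 4.56 against 3.78 and 4.19 (0.67 ± 0.23, adjusted p = 0.027), and lost its call without the first EB array (0.46, adjusted p = 0.25) or the first iHC array (0.60, adjusted p = 0.080). Mir183, named here after its values were seen, read 3.06, 2.82 and 2.90 against 2.40 and 2.59 and was not called (0.43 ± 0.33, adjusted p = 0.35). The arrays did not overlap for any of the 3 genes, but neither did they for 58.3% of all genes, with iHCs higher in 29.6%.

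The miR-7 genes, of neurons and endocrine cells, share 1 seed, as their mature forms show; Mir7-1 and Mir7-2 both give miR-7a.
mmu-miR-7a-5p, Mir7-1, chr13:58392841-58392863, minus strand: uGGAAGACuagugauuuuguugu
mmu-miR-7b-5p, Mir7b, chr17:56243017-56243040, plus strand: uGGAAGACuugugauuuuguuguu

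Mir7b read 6.13, 6.14 and 5.87 against 4.98 and 4.91 (1.11 ± 0.22, adjusted p = 0.00083). Mir7-1 was higher by 0.99 ± 0.23 but lost its call without the first EB array (0.75, adjusted p = 0.056). In the list of stem cell and dividing cell microRNAs 4 of 13 were lower, or 0 without the second EB array, 2 were higher, or 1 without either EB array or the second iHC array, and 7 were not called. Of the chromosome 14 cluster that is active in dividing cells, Mir19a read 2.56, 2.96 and 3.46 against 3.89 and 4.62 (-1.26 ± 0.28, adjusted p = 0.0017), and Mir18 and Mir20a were lower by -0.77 ± 0.19 and -0.62 ± 0.17. Without the second EB array the adjusted p of these was 0.051, 0.077 and 0.13, and Mir17 of the same cluster was not called (-0.34 ± 0.13, adjusted p = 0.061). Of 21 microRNA genes of other tissues 3 were lower, 1 higher and 17 not called. Mir145a and Mir143 among them, of smooth muscle, were lower by -1.85 ± 0.37 and -0.94 ± 0.15. Of 60 listed microRNA genes with an entry, 52 had a mature sequence in the RefSeq table.

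Atoh1 and other helix-loop-helix factors bind E-boxes, for which the 250 bases before the start of each gene were searched. The motif CAGCTG, which reads the same on both strands, was in 21.7% of the 23 largest rises with a promoter in the RefSeq table, in 11.8% of the 17 largest falls, and in 14.3% of the 16990 tested genes with a promoter. CAGATG or CATCTG was in 21.7% of the rises, 23.5% of the falls and 14.3% of all, and CACCTG or CAGGTG in 26.1%, 23.5% and 19.4%. With 5, 5 and 6 rises holding a match, these shares are a description. Of the 5 rises with CAGCTG, Ccer2 (6.25) and Rab3c (5.89) are not shown. For the other 3 the stretches around the CAGCTG nearest the start follow, the motif in capitals (GRCm38.p6, minus strand, written 5′ to 3′ towards the gene).
Plch2, chr4:155011052-155011151: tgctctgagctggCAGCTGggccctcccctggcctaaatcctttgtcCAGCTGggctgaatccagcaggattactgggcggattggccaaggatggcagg
Rimbp2, chr5:128953624-128953723: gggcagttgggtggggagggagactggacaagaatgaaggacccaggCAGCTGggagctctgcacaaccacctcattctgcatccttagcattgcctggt
Barhl1, chr2:28912496-28912557: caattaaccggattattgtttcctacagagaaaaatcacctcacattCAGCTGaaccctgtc

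Plch2, a phospholipase C that answers to calcium, holds 2 copies of the motif and read 10.11, 9.83 and 9.35 against 4.26 and 4.48 (5.40 ± 0.28, adjusted p = 1.4e-09). Among the other large rises were the receptor phosphatase Ptprz1, at 10.86, 10.66 and 9.78 against 3.44 on both EB arrays, and the LIM-homeobox gene Lhx1 (5.21 ± 0.33). The vesicle GTPase Rab3c rose by 5.89 ± 0.33 on 1 entry and differed by -0.10 on its other. Igsf21, a synaptic adhesion protein, rose by 4.87 ± 0.17, Ptprn of dense-core vesicles by 4.64 ± 0.17, and the neuronal arginine methyltransferase Prmt8 by 4.62 ± 0.17.

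The third Dox iHC array stood somewhat apart from the other iHC arrays. Over the 3420 genes called with a 2-fold change, the median position of the arrays, as a share of the mean difference from EBs, was 1.07, 1.02 and 0.917. It correlated with the EB arrays at 0.906 and 0.907, against 0.876 to 0.893 for the other iHC arrays. Genes with the widest range included the heat shock gene Hspa1b, at 5.18, 6.15 and 8.78 against 6.13 and 5.98 in EBs, and the glypican Gpc3 at 5.18, 6.04 and 8.14 against 10.44 and 10.39. The acid-sensing channel Asic3 went the other way, at 9.55, 8.53 and 6.68 against 4.60 and 4.50. Endothelial markers were instead highest on the second iHC array, with means of 5.14, 5.71 and 4.75. What sets the arrays apart was not tested; without the third array 8858 genes were called in place of 9055.

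The day 12 comparison was set against the same comparison on day 8 by limma's interaction test, which called 630 genes (2.84%): 229 genes (1.03%) with a more positive difference on day 12 and 401 (1.81%) with a more negative one. The count rested on few arrays. It was 266 and 291 without the second day 8 EB array and the first day 12 EB array, 396 without the second day 12 EB array, 414 without the second day 8 iHC array, and 1068 without the third day 12 iHC array. With the replicate number as a block, since same-numbered iHC arrays deviated together, it was 1430.

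For some genes the day 12 difference went with a higher level in day 12 than in day 8 EBs. Rxfp2 was at 7.55 ± 0.44 (SD, n = 2) in day 12 EBs and at 3.17 ± 0.26 in day 8 EBs, while the iHCs stood at 3.20 ± 0.04 (n = 3) and 3.47 ± 0.27; the differences on the 2 days differed by -4.65 ± 0.34 (adjusted p = 6.4e-06). Albumin stood at 8.16 ± 0.50 and 3.97 ± 0.17 in EBs and at 4.12 ± 0.14 and 4.00 ± 0.14 in iHCs (interaction -4.07 ± 0.23, adjusted p = 5.2e-07). The collagen crosslinking enzyme Lox (-3.27 ± 0.36), the mesoderm gene Osr1 (-3.01 ± 0.39), Col6a1 (-2.64 ± 0.21) and Gria1 (-2.68 ± 0.26) had the same pattern of group means. Of these 6 genes each kept its interaction call under all 18 alternatives other than the test against a minimum change.

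For Nefl, Ntrk3 and Sst the iHC mean was lower on day 12 than on day 8. Shifts between the days within a group were not tested. The neurofilament Nefl was at 8.01 ± 0.39 in day 12 iHCs and 9.72 ± 0.70 in day 8 iHCs, against 6.10 ± 0.08 and 4.53 ± 0.35 in EBs (interaction -3.27 ± 0.48, adjusted p = 0.0019). The neurotrophin receptor Ntrk3 was at 5.16 ± 0.40 and 7.15 ± 0.29 in iHCs against 6.22 ± 0.20 and 5.35 ± 0.49 in EBs (-2.86 ± 0.39, adjusted p = 0.0010). Somatostatin (Sst) was at 7.42 ± 1.42 and 10.95 ± 0.33 in iHCs (-4.24, adjusted p = 0.020), a call lost without either day 12 EB array, the second day 8 EB array or the second day 12 iHC array (largest adjusted p = 0.10). In the other direction, Slc18a2 stayed near 9.70 and 9.97 in iHCs and stood at 5.61 ± 0.02 and 8.05 ± 0.06 in EBs (2.18 ± 0.16, adjusted p = 6.4e-06), and the embryonic globin Hbb-y stood at 5.28 ± 0.08 in day 12 EBs and 7.90 ± 0.33 in day 8 EBs, while the iHC mean was 4.69 on both days.

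Hair cell genes whose difference was larger on day 12 included Lhfpl5, at 7.83 ± 0.49 on day 12 and 6.0 ± 0.52 on day 8 in iHCs (interaction 2.20 ± 0.46, adjusted p = 0.018), and the pump Atp2b2 (1.28 ± 0.25, adjusted p = 0.011). The Lhfpl5 call was lost without the first or the second day 12 EB array or the first day 8 EB array, with a largest adjusted p of 0.083, and that of Atp2b2 without the first day 12 EB array (0.066). Krt20, the Merkel cell keratin, was at 7.63 ± 0.31 and 6.47 ± 0.24 in iHCs (interaction 1.83 ± 0.36, adjusted p = 0.012). It lost its call without the first EB array of either day, with a largest adjusted p of 0.061.

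**Figure D5:**
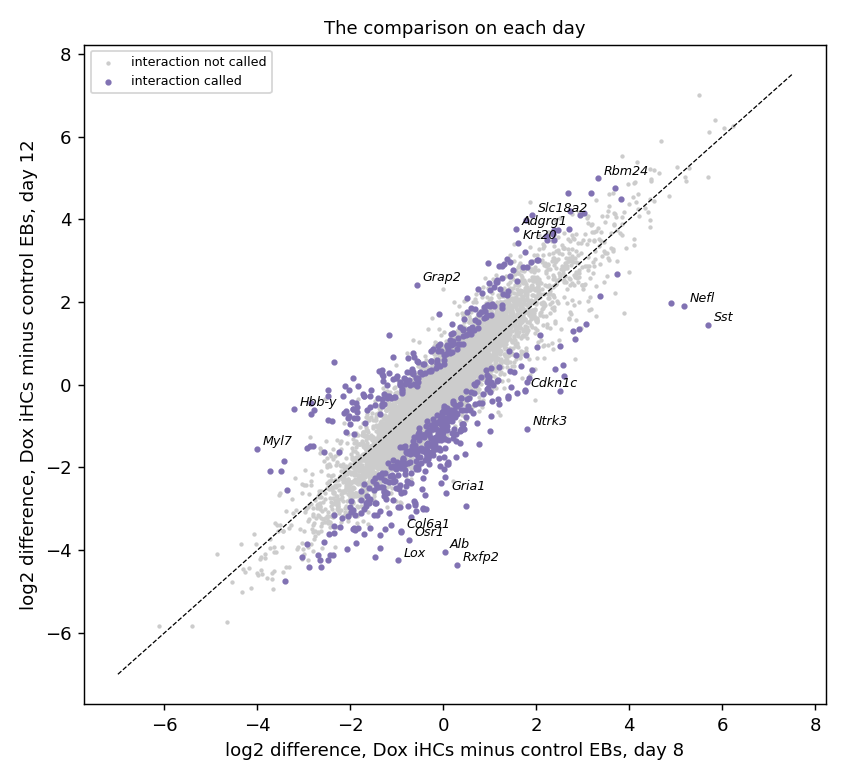
Log2 difference between Dox iHCs and control EBs on day 8 (x axis) and day 12 (y axis) for each of 22180 genes; purple points are the 630 genes whose differences on the 2 days differed in limma's interaction test and the dashed line marks equal differences. Alb and Rxfp2 lie near 0 on day 8 and near -4 on day 12; Sst and Nefl lie far below the line.

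Against iHCs of the same day treated with Dox and RA, 205 genes (0.924%) were called, 85 higher (0.383%) and 120 lower (0.541%) with RA, and 722 with the replicate block. Leaving out 1 array gave from 55 (the second array of either group) to 393 (the first Dox array), with 80 and 360 without the first and the third array with RA. Cyp26b1, an enzyme that degrades RA, was at 6.13 ± 0.23 (n = 3) with Dox and 8.60 ± 0.42 (n = 3) with Dox and RA, a difference of 2.47 ± 0.21 (adjusted p = 3.5e-05). The RA-metabolising enzyme Dhrs3 was at 4.63 ± 0.05 and 6.80 ± 0.29, and Hoxb5 at 6.09 ± 0.22 and 8.40 ± 0.35. Cib3, of the transduction complex, was at 6.09 ± 0.15 with Dox and 8.76 ± 0.56 with RA (2.67 ± 0.24, adjusted p = 5.3e-05). Cbln2, a synaptic organiser, was at 8.33 ± 0.26 with Dox and 6.28 ± 0.09 with RA (-2.06 ± 0.13, adjusted p = 3.9e-06), and the protocadherin Pcdh10 at 8.36 ± 0.18 and 6.49 ± 0.19. Atoh1, Pou4f3, Gfi1 and Myo7a differed by -0.02, 0.05, 0.15 and 0.00 between these groups and were not called.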

How the data were processed

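The authors deposited log2 RMA values of Affymetrix Mouse Gene 2.1 ST arrays, for which the submitters' processing notes name Expression Console; no version or array batch is given in the sources used here. RMA compresses low signals. The deposited values were used as they stand. Of 33708 entries 23521 carried 1 gene symbol; the entry with the highest mean was kept for 1082 genes with several, which left 22180 genes. All 16 arrays entered 1 limma 3.58.1 fit (R 4.3.3) with 6 group means, with contrasts for Dox iHCs minus control EBs on day 12, the interaction with day 8, and Dox+RA minus Dox. Python 3.11.15 with pandas 2.3.3 and matplotlib 3.10.9 served for the remaining steps, and the fit was tested on simulated data.

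The comparison, its members and the 47 gene lists were chosen with earlier results of these data known. Named genes are the 3 factors and Myo7a, the 25 largest rises and falls among called genes whose arrays do not overlap (predicted genes, clones and small RNAs passed over), up to 5 called and 2 other members of each list, the 8 largest differences each way of the other contrasts, called microRNAs and the cell type markers; the text gives a part of them. Replicate numbers were checked through correlations of deviations from group means: same-numbered day 12 Dox iHC arrays correlated at 0.352 to 0.513 with day 8 Dox iHC arrays and at 0.280 to 0.453 with Dox+RA arrays. The labels tie no numbers to a shared batch. The number of arrays limits the precision.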

Additional observations from a re-analysis of the deposited data

Results flagged for a closer look

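For these genes the difference between Dox iHCs and control EBs on day 12 differed from that on day 8 in limma's interaction test (adjusted p under 0.05 over all genes), and each value is the day 12 minus the day 8 log2 difference. Most of these calls are lost when 1 array or another is left out. Igfbp4 kept its call under only 8 of 18 alternatives and Notch2 under 9. Rbm24, Cacna2d2, Isl1 and Myl7 kept theirs under 10. Dpysl5 stood at the threshold, with an adjusted p of 0.05 after rounding.

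Among mesenchyme, matrix and mesoderm genes the difference was more negative on day 12 for Rxfp2 (-4.65), Lox (-3.27), Osr1 (-3.01), Col6a1 (-2.64), Col6a3 (-2.24), Meox2 (-1.80), Itm2a (-1.76), Sfrp2 (-1.67), Igfbp7 (-1.60), Islr (-1.52), Nr2f2 (-1.49), Col1a2 (-1.34), Igfbp4 (-1.20) and Fat4 (-1.14). The RA enzyme Dhrs3 (-1.72), albumin (Alb, -4.07), the macrophage gene Adgre1 (-1.43), the receptor Notch2 (-1.54) and Ascl2 (-1.27) were also more negative. The Fat4 call was lost when its array entries were averaged.

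Among neuronal and sensory genes the more negative values were those of Sst (-4.24), Nefl (-3.27), Slitrk6 (-2.91), Ntrk3 (-2.86), Epha3 (-2.71), Gria1 (-2.68), Isl1 (-2.03), Cacna1g (-1.78), Unc5c (-1.75), Gria4 (-1.49), Robo2 (-1.06), Kif21b (-0.99) and Gad2 (-0.83). For growth genes they were Cdkn1c (-1.88), Top2a (-1.34), Rps28 (-0.92) and Rplp0 (-0.75); the array entries of the last pair disagree with one another.

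The difference was more positive on day 12 for the blood genes Sptb (2.39), Rhag (2.34), Hbb-y (2.62) and Hbb-bh1 (1.66) and for Myl7 (2.45), Hsd3b6 (2.40), Cited4 (2.90) and Grap2 (2.97). Hair cell, synapse and secretory genes with more positive values were Lhfpl5 (2.20), Slc18a2 (2.18), Rbm24 (1.66), Cbln2 (1.59), Syt7 (1.48), Ptprn (1.47), Atp2b2 (1.28), Scg5 (1.27), Pclo (1.18) and Cacna2d2 (1.07). The others were Adgrg1 (2.21), Krt20 (1.83), Dpysl5 (1.37) and Dpf3 (0.95).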

How the results depend on the processing

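The day 12 count of 9055 called genes ranged from 7210 to 8858 when 1 array was left out, and was 1742 when limma's treat tested against a change of 2-fold. The interaction count of 630 was 415 with only the groups compared, 1021 with array weights and 23 with treat, and ranged from 266 to 1068 when 1 array was left out. The count of 205 for RA was 29, 635 and 5 under the same 3 settings and ranged from 55 to 393. With the replicate number as a block the 3 counts were 9756, 1430 and 722; only 2 pairs exist between day 12 iHCs and EBs, with correlations of 0.140 and 0.0772, so pairing is not established there. Median centring raised the share of day 12 calls that were higher from 47% to 53.9% and quantile normalisation to 50.2%. With only the groups compared the day 12 count was 8118. The causes of these moves were not tested.

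Of 356 named genes called, 49 lost the call under at least 1 alternative other than treat, most often without the second (35) or first (29) EB array, and 132 lost it under treat; 28 uncalled genes gained one. No called gene changed sign. Uncalled genes did when 1 array was left out: Aqp4 ranged from -0.08 to 0.31, Cdkn1a from -0.45 to 0.10, Cdkn1c from -0.38 to 0.15, Dcx from -0.39 to 0.13, Egr3 from -0.37 to 0.96, Gfap from -0.04 to 0.09, Hoxb4 from -0.32 to 0.11, Hspa1b from -0.39 to 1.41, Krt8 from -0.12 to 0.09, Mir302c from -0.44 to 0.04 and Stmn2 from -0.17 to 0.02. Egr3 and Hspa1b were negative without the third iHC array. Krt8 was 0.05 with median centring and 0.02 with array weights, and Gfap -0.01 with the replicate block. RMA signals near the background compress changes, so small differences of dim genes are uncertain.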
